A study of Mus musculus domesticus with 6 samples.

Results

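The 42 genes described here act in the repair of DNA double-strand breaks and of crosslinks between the DNA strands. They were taken by name from the 55359 gene entries of each deposited table, and all 42 were found. Mre11a is the gene now also called Mre11. All 42 had enough reads to be among the 13117 genes tested.

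The RNA came from BFU-E, the burst-forming units that stand at the start of red blood cell production, sorted from mouse fetal livers at the embryonic stage E14.5. All embryos were Exosc3 fl/fl, so both alleles of Exosc3, a subunit of the RNA-degrading exosome, could be cut by Cre. The 3 Cre-negative libraries came from embryos without the Vav1-Cre transgene. The 3 Cre-positive libraries came from embryos with it, in which the Vav1 promoter drives Cre throughout blood-forming cells, not in BFU-E alone. The design text gives 2 samples from each of 3 litters. The labels describe a gate on GFP, absence of lineage markers, Kit and low CD24 and CD71 for the 6 samples, without stating how the GFP gate was set in embryos that lack Cre. Nothing in them ties a sample number to a litter. The main test sets the difference between the groups against the spread of these 6 samples within groups, and takes no account of litter.

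A double-strand break is first recognised by the MRE11-RAD50-NBS1 complex, which activates the kinase ATM, while ATR responds to stretches of single-stranded DNA and acts through CHK1. The break is then either rejoined directly by the Ku and DNA-PKcs proteins with DNA ligase IV, or trimmed back and copied from the sister chromatid with BRCA1, PALB2 and BRCA2. The Fanconi anaemia proteins form a ubiquitin ligase that marks FANCD2 and FANCI at crosslinks, and inherited loss of the pathway causes bone marrow failure. Dividing blood progenitors use these routes to copy their DNA without losing pieces of it.

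Exosc3 (ENSMUSG00000028322), the targeted gene, lay below the Cre-negative range in all 3 Cre-positive libraries (log2 fold change -0.87, standard error 0.22). It was not called by edgeR (adjusted p = 0.259) and was called by DESeq2 (adjusted p = 0.00294). Library totals were 89629949 to 124931215 expected counts. Genes with reads in 1 library alone had 108 of them in the median case, so low read numbers can come from a few captured molecules. Erythroid markers such as Klf1, Gata1 and Kit were present in both groups. The summed level of 13 of them was 1100 to 1197 TPM in Cre-negative and 1308 to 1605 TPM in Cre-positive libraries, without overlap. Of the 12 tested, 8 had a log2 fold change above 0 and 4 below, with a median of 0.13 and a lowest value of -0.77. Only 1 of them, Car2, was called, and it rose (edgeR adjusted p = 0.00787). Markers of other cells differed between the groups in part. The summed level of 13 neutrophil and monocyte markers was 336 to 976 TPM in Cre-negative and 175 to 339 TPM in Cre-positive libraries, with S100a8, S100a9 and Ly6c2 at 0 in all 6. That of 10 lymphoid markers was 41.3 to 109 TPM against 3.55 to 12.1 TPM, with Cd3e and Dntt at 0. Megakaryocyte markers summed to 33.5 to 51.0 against 35.6 to 63.4 TPM, mast cell and basophil markers to 2.63 to 10.1 against 2.66 to 8.65 TPM, and endothelial and stromal markers to 10.1 to 35.0 against 2.74 to 12.3 TPM. Of 8 macrophage markers 6 were at 0 in every library, as were 5 of 8 hepatocyte markers. The summed level of the hepatocyte markers was 3.81 to 19.4 against 0 to 3.30 TPM, low and without overlap. That of the macrophage markers was 0 to 1.31 against 0 TPM. The part of these shifts in the values of the repair genes was not tested. In bulk samples, fewer cells of a type and less RNA per cell cannot be told apart.

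None of the 42 repair genes passed the test between Cre-positive and Cre-negative BFU-E (edgeR, adjusted p under 0.05), where 0.122% of all tested genes did. DESeq2 and limma-voom also called 0 of the 42. Over all genes DESeq2 called 619 of the 16922 with a read, and limma-voom 20 of the 13117 tested. At an unadjusted p under 0.05, edgeR gave 1 repair gene, Rnf8, which is 2.38% of the 42 and was higher in Cre-positive cells, against 8.23% of all tested genes (4.05% higher and 4.19% lower). By the same measure DESeq2 gave 5 (Rnf8, Rad54l and Lig4 higher, Chek2 and Fancl lower), against 14.4% of all genes it tested (6.88% higher and 7.49% lower). Limma-voom gave 2 (Rnf8 higher, Chek2 lower), against 9.34% (4.64% higher and 4.7% lower). The smallest adjusted p of any repair gene was 0.518 in edgeR and, over 15 other settings of the test, 0.111 for Rnf8 in DESeq2.

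The precision of the fold changes differed widely between the genes. On the scale of counts, the 95% interval of the log2 fold change lay wholly between -1 and 1 for 29 of the 42 genes. That is within a 2-fold change either way. For 13 genes a change of 2-fold or more in at least 1 direction lay inside the interval. Within 1.5-fold lay the intervals of 18 genes. By edgeR the median log2 fold change of the 42 was -0.01, with 20 above and 22 below 0, beside -0.01 over all tested genes, of which 49.2% lay above and 50.8% below 0. When each library's effective transcript length was taken into account, the median of the 42 was 0.14 (27 above and 15 below 0). That of all tested genes stayed at -0.01. The median standard error of the 42 was 0.36 under this setting and 0.20 on counts, so the intervals above hold for counts only. The sign turned for 13 of the 42 under this setting. These were Atm, Atr, Chek1, Mdc1, Trp53bp1, Mre11a, Exo1, Brca1, Brip1, Xrcc3, Rad52, Fancc and Parp1.

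**Figure D1:**
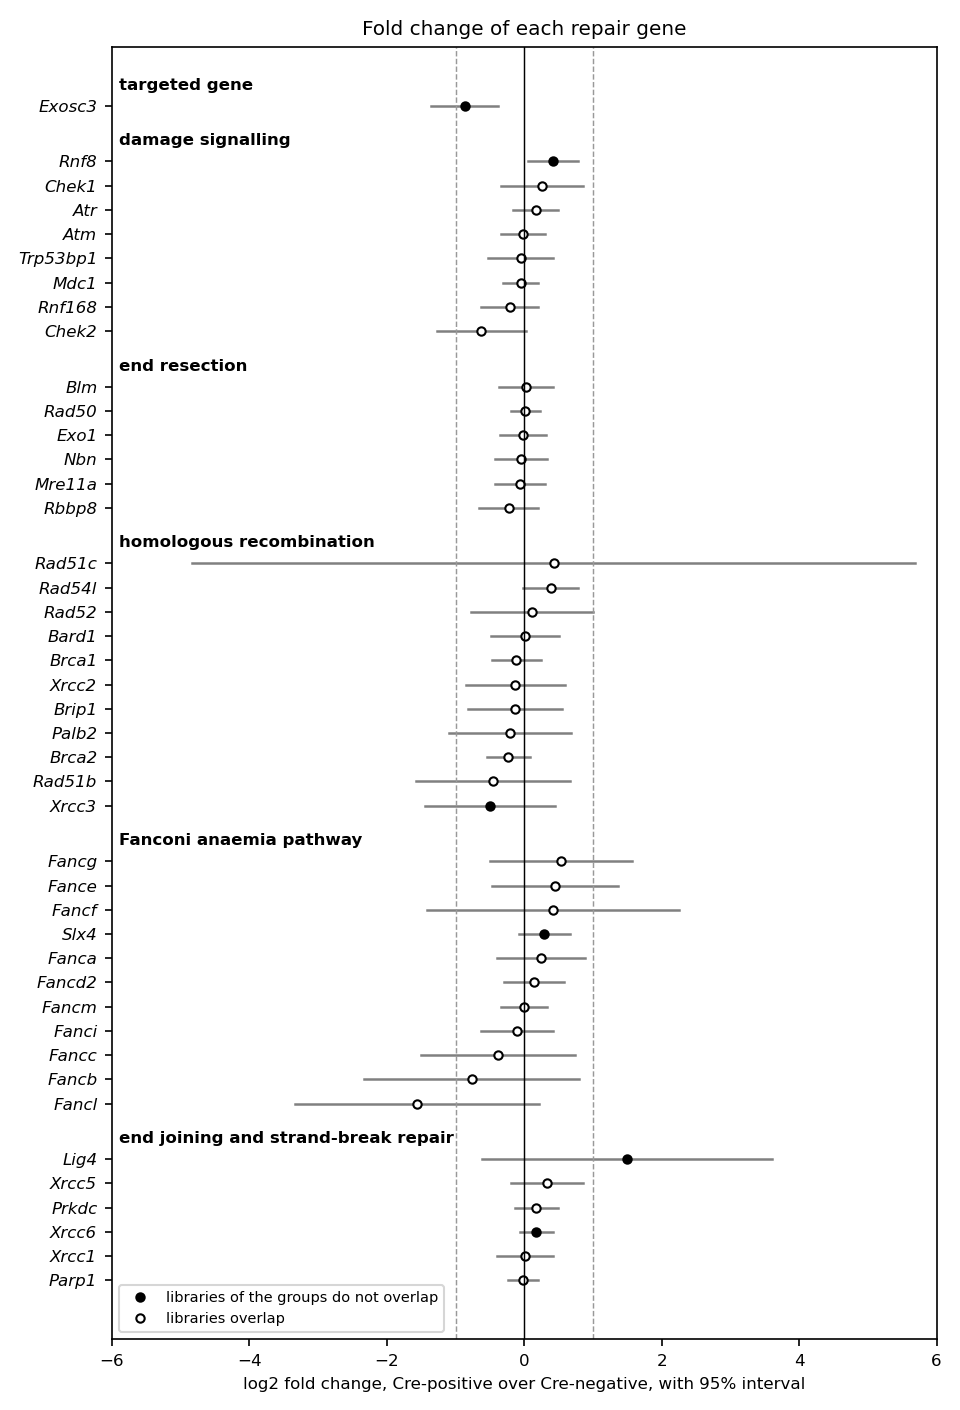
Log2 fold change of Exosc3 and of the 42 repair genes, grouped by role, from edgeR on expected counts. Points are estimates, lines are 95% intervals and dashed lines mark a 2-fold change. Filled points mark genes whose 3 Cre-positive libraries all lie above or all below the 3 Cre-negative ones by CPM. For 29 of the 42 repair genes the interval stays between the dashed lines, and Rad51c has the widest interval.

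The genes spanned a wide range of levels. Levels are given first as TPM, the authors' transcript share, which is scaled for length and allows comparison between genes. The mean over 6 libraries ranged from 1.61 TPM for Lig4 to 161 TPM for Parp1, a 99.8-fold range, with a median of 22.7 TPM. By mean TPM in Cre-negative cells, 28 of the 42 lay above the median of all tested genes, and the median repair gene stood at the 60.8th percentile. A count was found in every library for 41 of the 42, the exception being Rad51c.

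**Figure D2:**
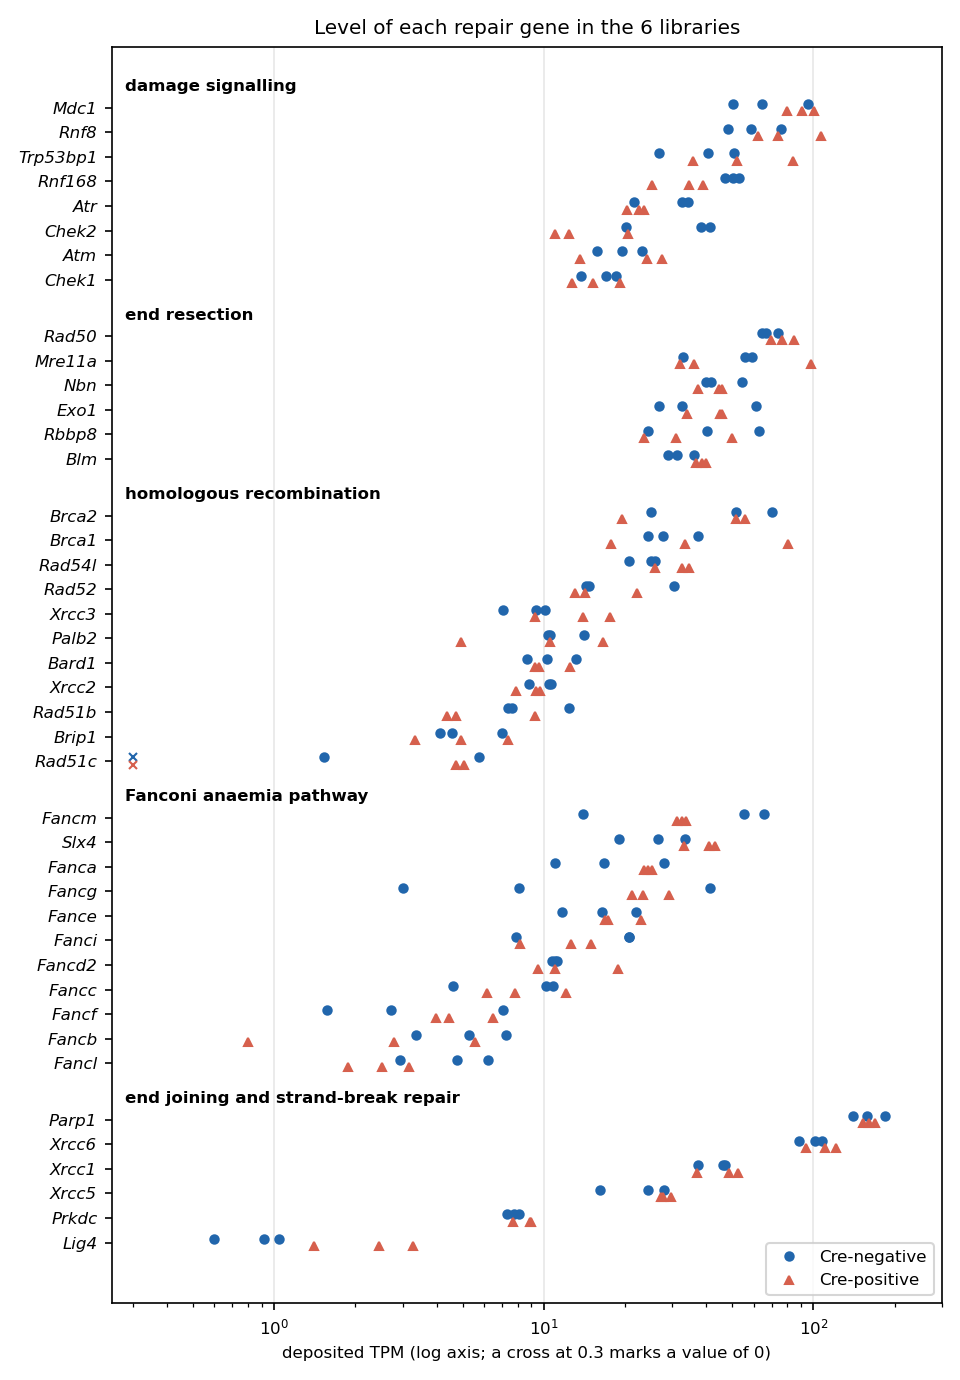
Deposited TPM of each repair gene in each library, on a log axis, grouped by role and ordered by mean level. Circles are the 3 Cre-negative and triangles the 3 Cre-positive libraries, and the crosses for Rad51c mark the 2 libraries with a value of 0. Parp1 is highest and Lig4 lowest, and most genes show mixed circles and triangles.

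Damage signalling genes hold the kinases that sense breaks and the proteins that gather at damaged chromatin. Of the 8, 3 had a log2 fold change above 0 and 5 below, with a median of -0.03. The mediator Mdc1, a scaffold that binds phosphorylated H2AX, was the highest of them at 95.5, 50.3 and 64.6 TPM in the Cre-negative libraries and 100, 90.6 and 79.6 TPM in the Cre-positive ones. The groups overlapped for Mdc1. The kinases Atm and Atr had log2 fold changes of -0.02 (95% interval -0.34 to 0.31) and 0.17 (-0.16 to 0.49). A 1.5-fold change in either direction lay outside both intervals on the scale of counts. With effective length offsets Atr had a log2 fold change of -0.38 (standard error 0.21), and its mean was 29.5 TPM without and 22.1 TPM with Cre.

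Rnf8 (ENSMUSG00000090083) encodes a ubiquitin ligase recruited by MDC1. On the scale of CPM, the count scaled to a common library size, it stood at 62.9, 66.2 and 54.2 in Cre-negative replicates 1, 2 and 3, and at 72.4, 85.3 and 86.8 in Cre-positive replicates 1, 2 and 3. All 3 Cre-positive libraries lay above all 3 Cre-negative ones. The means were 61.1 ± 6.21 and 81.5 ± 7.93 CPM (SD, n = 3 each), a 1.33-fold ratio, and edgeR gave a log2 fold change of 0.42 (standard error 0.16, adjusted p = 0.518). By TPM the groups overlapped, at 58.5, 75.8 and 48.3 against 62.3, 74.2 and 107. Of the exon bases of Rnf8, 13.2% also belong to the gene model Gm28043 on the same strand (GENCODE M21, build GRCm38), so its reads could be split between these models. Rnf168, the ligase that acts after RNF8 and spreads the ubiquitin mark, had a log2 fold change of -0.21 (-0.63 to 0.20). With effective length offsets Rnf168 had -0.57 (standard error 0.21, edgeR adjusted p = 0.582). By TPM its groups did not overlap, at 50.2, 46.8 and 53.2 against 39.0, 25.2 and 34.6, though they did by CPM. Trp53bp1, which binds the ubiquitin mark and favours end joining, had a log2 fold change of -0.05 (-0.53 to 0.42). With effective length offsets it was 0.58 (standard error 0.35).

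The checkpoint kinase genes are described together. Chek2 (ENSMUSG00000029521), the kinase downstream of ATM, is singled out after its values were seen. It stood at 37.1, 35.0 and 46.9 CPM in the Cre-negative libraries and 19.7, 21.7 and 35.7 CPM in the Cre-positive ones. Cre-positive replicate 3 reached into the Cre-negative range, and the other 2 lay below it. The log2 fold change was -0.63 (-1.28 to 0.02) with an edgeR adjusted p of 0.634. Without Cre-positive replicate 3 it was -0.94 (edgeR adjusted p = 0.34), and with effective length offsets -1.15 (edgeR adjusted p = 0.508). Chek1, the kinase downstream of ATR, had a log2 fold change of 0.26 (-0.34 to 0.86).

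End resection genes trim a break to leave single-stranded tails. On the scale of counts all 6 had log2 fold changes between -0.23 and 0.03, with 2 above and 4 below 0. Every interval on that scale lay within a 2-fold change. With effective length offsets their standard errors ran from 0.13 for Rad50 to 0.43 for Mre11a. Their median read number, 10552 per library, was the highest of the 5 roles. Rad50, the coiled-coil ATPase of the MRN complex, stood at 293, 269 and 261 CPM in the Cre-negative libraries and 262, 271 and 301 CPM in the Cre-positive ones. Its means differed by less than the spread between replicates, at 275 ± 16.7 and 278 ± 20.1 CPM (SD, n = 3 each). Its log2 fold change was 0.02 (-0.20 to 0.23).

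The partners of RAD50 were at like levels. Nbn, which encodes the NBS1 subunit, averaged 44 TPM over the 6 libraries, the nuclease Mre11a 52.3 TPM and Rad50 72.6 TPM. Log2 fold changes were -0.05 for Nbn (-0.43 to 0.33) and -0.06 for Mre11a (-0.42 to 0.31). The exonuclease Exo1, the helicase Blm and the resection cofactor Rbbp8, which encodes CtIP, had log2 fold changes of -0.02, 0.03 and -0.23, with no call.

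Homologous recombination genes showed 4 values above and 7 below 0, with a median of -0.13. Brca1 and Bard1 encode the partners of a ubiquitin ligase that promotes resection. Brca1 stood at 109, 136 and 133 CPM in the Cre-negative libraries and 121, 134 and 94.6 CPM in the Cre-positive ones, with overlapping groups and a log2 fold change of -0.12 (-0.47 to 0.24). With effective length offsets it was 0.59 (standard error 0.47). Bard1 had a log2 fold change of 0.01 (-0.48 to 0.50). Brca2, a mediator of strand exchange, had one of -0.23 (-0.55 to 0.09), and Palb2, which joins BRCA1 to BRCA2, one of -0.21 (-1.09 to 0.67). Brip1, a helicase partner of BRCA1, had one of -0.13 (-0.81 to 0.55).

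Rad54l, the motor protein that helps strands pair, had a log2 fold change of 0.38 (-0.01 to 0.78; edgeR adjusted p = 0.634). Its means were 60.9 ± 8.67 CPM without and 79.4 ± 10.7 CPM with Cre (SD, n = 3 each), and 1 Cre-positive library lay within the Cre-negative range. Of its exon bases 15.4% lie opposite exons of Lrrc41. Rad52, an annealing protein, had a log2 fold change of 0.11 (-0.77 to 1.00).

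Rad51b, Rad51c, Xrcc2 and Xrcc3, which assist strand exchange, were measured with different precision. Rad51c (ENSMUSG00000007646) had 0, 187 and 437 reads in the Cre-negative libraries and 544, 0 and 318 reads in the Cre-positive ones. Each group thus held 1 library at 0, and its mean of 248 reads was the lowest of the 42 genes. A count of 0 allows up to 3 reads, which is less than the 108 reads of a typical gene found in 1 library only. The 95% interval of its log2 fold change ran from -4.83 to 5.69. The estimate was 0.43, and between -0.35 without Cre-positive replicate 1 and 1.42 without Cre-negative replicate 3. Rad51b and Xrcc2 had log2 fold changes of -0.46 (-1.58 to 0.66) and -0.13 (-0.85 to 0.59).

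Xrcc3 (ENSMUSG00000021287), whose protein pairs with that of Rad51c, gave opposite directions on the 2 scales. By CPM it stood at 16.8, 13.1 and 13.6 in Cre-negative and 12.3, 12.1 and 6.38 in Cre-positive libraries, with every Cre-positive library below every Cre-negative one. By TPM it stood at 9.32, 7.03 and 10.1 against 17.6, 13.9 and 9.25, with overlapping groups and the higher mean in Cre-positive cells. The log2 fold change was -0.50 by edgeR on counts (-1.45 to 0.45; adjusted p = 0.916) and 0.66 with effective length offsets (adjusted p = 0.909). The effective length that RSEM assigned to Xrcc3, which follows the estimated mix of its transcripts, was 2016, 2090 and 1562 bases in the Cre-negative libraries and 760, 968 and 768 bases in the Cre-positive ones. The shorter lengths were found in all 3 Cre-positive libraries.

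Fanconi anaemia genes had the widest range of log2 fold changes of the 5 roles. Of the 11, 6 lay above and 5 below 0, with a median of 0.14 and a range of -1.56 to 0.53. Their median read number, 1658 per library, was the lowest of the 5 roles, and for 6 of them (Fancb, Fancc, Fance, Fancf, Fancg and Fancl) a 2-fold change lay inside the 95% interval. The pair that receives the ubiquitin mark was measured more precisely. Fancd2 had a log2 fold change of 0.14 (-0.29 to 0.57) and Fanci one of -0.11 (-0.63 to 0.41), and they averaged 12.1 and 14.2 TPM.

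Fancl (ENSMUSG00000004018) encodes the subunit of the core complex that carries the ligase activity. It had 740, 1397 and 476 reads in the Cre-negative libraries and 307, 170 and 465 reads in the Cre-positive ones, which is 7.69, 13.3 and 3.83 CPM against 2.47, 1.92 and 4.03 CPM. The groups overlapped, since Cre-positive replicate 3 lay above Cre-negative replicate 3. The log2 fold change was -1.56 (-3.33 to 0.21; edgeR adjusted p = 0.702). It was -0.86 with effective length offsets and -0.66 on log2(TPM + 1). Of its exon bases 13.7% lie opposite exons of Vrk2.

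Among the other core subunits the signs were mixed. Fanca, Fance, Fancf and Fancg had log2 fold changes of 0.24, 0.45, 0.42 and 0.53, and Fancb and Fancc had -0.77 and -0.39. None passed. Without Cre-positive replicate 3 Fancb had -1.53, and without Cre-negative replicate 2 Fancf had 1.25, also without a call. Fancg stood at 10.4, 6.55 and 20.1 CPM in the Cre-negative libraries and 14.2, 20.5 and 18.9 CPM in the Cre-positive ones. The groups overlapped, since Cre-negative replicate 3 lay among the Cre-positive libraries, and without Cre-negative replicate 3 the log2 fold change was 1.07 (edgeR adjusted p = 0.641). On log2(TPM + 1) it was 1.14. Fancm, the translocase that anchors the core complex on DNA, had a log2 fold change of 0.00 (-0.34 to 0.34).

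Slx4 (ENSMUSG00000039738) is the scaffold for the nucleases that cut around a crosslink. It stood at 51.0, 65.9 and 67.6 CPM in the Cre-negative libraries and 75, 75.3 and 75.6 CPM in the Cre-positive ones. The Cre-positive libraries lay close together and above all Cre-negative ones, with means of 75.3 ± 0.323 and 61.5 ± 9.14 CPM (SD, n = 3 each). By edgeR its log2 fold change was 0.29 (-0.08 to 0.66; adjusted p = 0.764).

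End joining genes and strand-break repair genes included both ends of the range of levels. Of the 6, 5 had a log2 fold change above 0 and 1 below, with a median of 0.17. Parp1 (ENSMUSG00000026496), the enzyme that marks broken DNA with poly(ADP-ribose), was the highest of the 42 at 140, 158 and 184 TPM in the Cre-negative libraries and 153, 170 and 160 TPM in the Cre-positive ones. The Cre-positive values lay inside the Cre-negative range. Its log2 fold change was -0.02 (-0.23 to 0.20). Xrcc1, the scaffold that brings DNA ligase III to nicks, had a log2 fold change of 0.01 (-0.39 to 0.42).

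Xrcc6 and Xrcc5 encode Ku70 and Ku80, which clamp around a DNA end as a pair. Xrcc6 (ENSMUSG00000022471) stood at 140, 145 and 132 CPM in the Cre-negative libraries and 150, 167 and 153 CPM in the Cre-positive ones. The groups did not overlap by CPM, and the log2 fold change was 0.17 (-0.07 to 0.42; edgeR adjusted p = 0.823). By TPM Xrcc6 stood at 108, 101 and 88.8 against 94.2, 111 and 121, with overlapping groups. Of its exon bases 7.69% lie opposite exons of Desi1. Xrcc5 had a log2 fold change of 0.34 (-0.19 to 0.86), with a Cre-negative replicate 3 of 30.8 CPM below the other 5 libraries, which lay between 48.4 and 59.1 CPM. Per length, Xrcc6 stood above Xrcc5 in every library, by 3.45-fold to 5.50-fold in TPM. Prkdc, which encodes the DNA-PKcs kinase that Ku recruits, averaged 8.12 TPM with a log2 fold change of 0.18 (-0.14 to 0.49).

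Lig4 (ENSMUSG00000049717), the ligase that seals the joined ends, was the lowest of the 42 genes by level. It had 142, 239 and 332 reads in the Cre-negative libraries and 772, 744 and 402 reads in the Cre-positive ones, or 1.47, 2.28 and 2.67 CPM against 6.22, 8.41 and 3.49 CPM. All 3 Cre-positive libraries lay above all 3 Cre-negative ones, and the groups were also apart by TPM, at 0.60, 0.92 and 1.04 against 2.44, 3.27 and 1.40. The means were 2.14 ± 0.610 and 6.04 ± 2.47 CPM (SD, n = 3 each), a 2.82-fold ratio. The log2 fold change of 1.49 was the highest of the 42, with a standard error of 0.94, a 95% interval of -0.62 to 3.60 and an edgeR adjusted p of 0.829. On log2(TPM + 1), which understates changes of low genes, it was 0.83.

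In all, the libraries of the groups did not overlap by CPM for 5 of the 42 genes, or 11.9%. Over all tested genes the share was 15.2% (7.53% higher and 7.66% lower). The 5 were Rnf8, Lig4, Slx4 and Xrcc6, which were higher in Cre-positive libraries, and Xrcc3, which was lower. By TPM, of these only Lig4 stayed apart, while Rnf168 (lower) and Blm (higher) were apart by TPM and not by CPM. The share of all tested genes apart by TPM was not counted. Of the 4 higher genes, Lig4 and Xrcc6 are 2 of the 6 end joining and strand-break repair genes. Rnf8 belongs to damage signalling and Slx4 to the Fanconi anaemia genes. For 11 of the 42 genes more than 5% of the exon bases lie opposite exons of another gene model (GENCODE M21), Fanca, Fancc, Fancf, Fanci and Trp53bp1 among them. The strand setting of the counting is not stated, so whether reads of such pairs were separated is not known.

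Deposited TPM varied more between libraries than CPM for 29 of the 42 genes, with a median coefficient of variation over the 6 libraries of 29.8% for TPM and 18.1% for CPM. The effective length in the same tables differed by more than 2-fold between libraries for 14 of the 42. Brca1 had the largest difference between both coefficients. Its CPM varied by 13.7%, its TPM by 61.1%, and its effective length was 1846 bases in Cre-positive replicate 2 and 3960 to 6240 bases in the other 5 libraries. In that replicate Brca1 stood at 80.6 TPM, above the 17.7 to 37.3 TPM of the others, while its 134 CPM lay within their range of 94.6 to 136 CPM. Mre11a (11.7% by CPM and 48.2% by TPM) and Fancm (9.86% and 48.0%) showed the same contrast. A changing length did not always go with a wider spread of TPM. Fance (31.1% by CPM and 22.9% by TPM) and Fancl (77.8% and 45.2%) varied less by TPM, with lengths that differed by 3.94-fold and 2.81-fold. Genes with a nearly constant length, such as Prkdc, varied alike on both scales, by 9.98% and 8.40%.

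**Figure D3:**
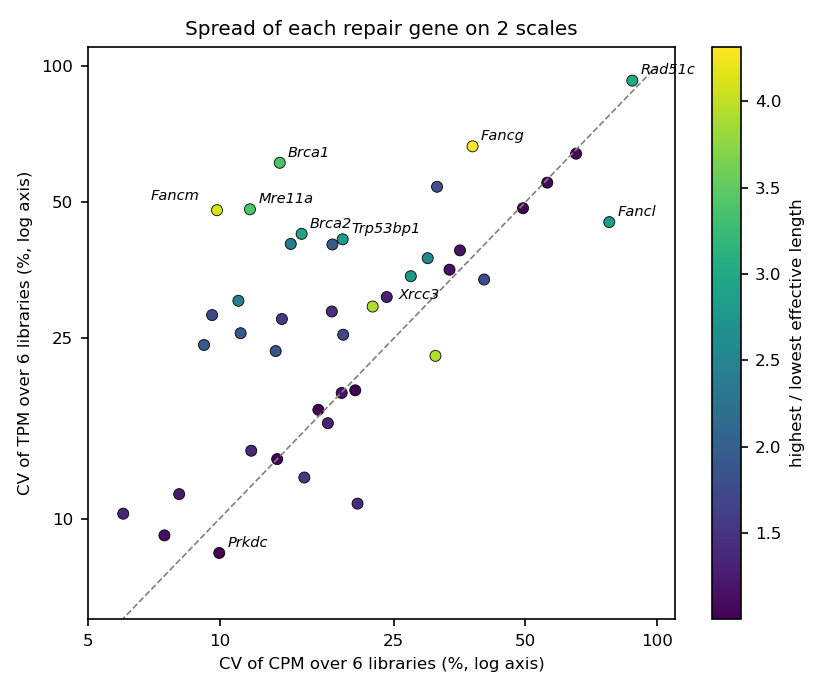
Coefficient of variation of each repair gene over the 6 libraries, by CPM on the horizontal and by TPM on the vertical axis, both log axes, coloured by the ratio of its highest to its lowest effective length. The dashed line marks equal spread. Of the 42 genes 29 lie above the line, and Brca1, Mre11a and Fancm lie far above it with lengths that differ by more than 3-fold.

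Among the 31 repair genes whose effective length varied at least 1.2-fold, the groups did not overlap in that length for 4, or 12.9%, beside 10.5% of all tested genes with as much variation (4.22% longer and 6.27% shorter). Atr and Chek1 had longer values in Cre-positive libraries, and Blm and Xrcc3 had shorter ones. Atr had 3996, 5583 and 3943 bases in the Cre-negative libraries and 5862, 7362 and 5872 bases in the Cre-positive ones. Chek1 had 1671, 1732 and 1561 against 1932, 2049 and 2083 bases. These lengths are estimates of the authors' RSEM run, were not tested, and of the exon bases of Atr 5.03% lie opposite exons of other gene models.

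Further genes of the same pathways were read beside the 42. Of 71 tested partners, such as the replication protein A subunits, nucleases and further end joining factors, 0 passed (edgeR, adjusted p under 0.05). The median log2 fold change of the 71 was 0.05, with 41 above and 30 below 0. At an unadjusted p under 0.05, 2 were higher and 3 lower, beside 4.05% higher and 4.19% lower over all tested genes. The 5 genes were Parp2 and the end-processing nuclease gene Dclre1c (Artemis), which had log2 fold changes of 0.46 and 0.57, and the telomere and crosslink nuclease gene Dclre1b (Apollo), Fignl1 and Rfwd3, which had -0.89, -0.34 and -0.30. Their edgeR adjusted p ran from 0.485 to 0.606. Fignl1, which encodes an ATPase, stood at 89.7, 86.1 and 87.8 CPM in the Cre-negative libraries and 70.7, 67.7 and 70.1 CPM in the Cre-positive ones. The sixth by p was Rif1, a 53BP1 effector, at 432 ± 16.3 against 486 ± 22.7 CPM (SD, n = 3 each; log2 fold change 0.17, edgeR adjusted p = 0.657).

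Many repair genes are made mainly while DNA is being copied, so lists of cell cycle genes were read beside them. The medians were -0.02 over 40 genes of S phase and replication and -0.06 over 30 genes of G2 and mitosis, with 0 called in both (edgeR, adjusted p under 0.05). At an unadjusted p under 0.05 the first list had 1 lower gene, Gins4 (log2 fold change -0.95, edgeR adjusted p = 0.294). The second had 3 higher and 2 lower, among them Aurkb (-0.49, edgeR adjusted p = 0.316) and Cenpe (0.22, edgeR adjusted p = 0.478). Over all tested genes 4.05% were higher and 4.19% lower by that measure. DESeq2 called Gins4 (adjusted p = 0.0103) and Aurkb (adjusted p = 0.0184).

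A list of other repair routes and a list of p53 targets were read in the same way. The 32 genes of excision repair and translesion synthesis had a median log2 fold change of -0.02, with 15 above and 17 below 0. Of these 32, 1 passed, the translesion polymerase Rev1. It rose from 104 ± 3.41 to 199 ± 22.4 CPM (SD, n = 3 each; log2 fold change 0.93, edgeR adjusted p = 0.0223). Rev1 lost its call with effective length offsets (edgeR adjusted p = 0.382), with limma on log2(TPM + 1) and without any 1 library except Cre-positive replicate 3 (highest edgeR adjusted p = 0.158). Ercc5, the XPG nuclease gene, stood at 33.1, 16.8 and 20.0 against 67.3, 83.2 and 95.7 CPM, with an edgeR adjusted p of 0.0573. It was called under 6 of the 15 other settings, DESeq2 (adjusted p = 1.11e-10) and limma-voom among them. Of 26 tested p53 targets, 3 passed (Cdkn1a, Ccng1 and Zmat3), 18 were higher at an unadjusted p under 0.05 and the median was 1.38. Over all tested genes 0.122% passed and 4.05% were higher at an unadjusted p under 0.05. The p53 list was drawn up with its rise in these data already known, and it shares Polk, Ddb2 and Xpc with the excision repair list. Whether the lists differ from one another was not tested.

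**Figure D4:**
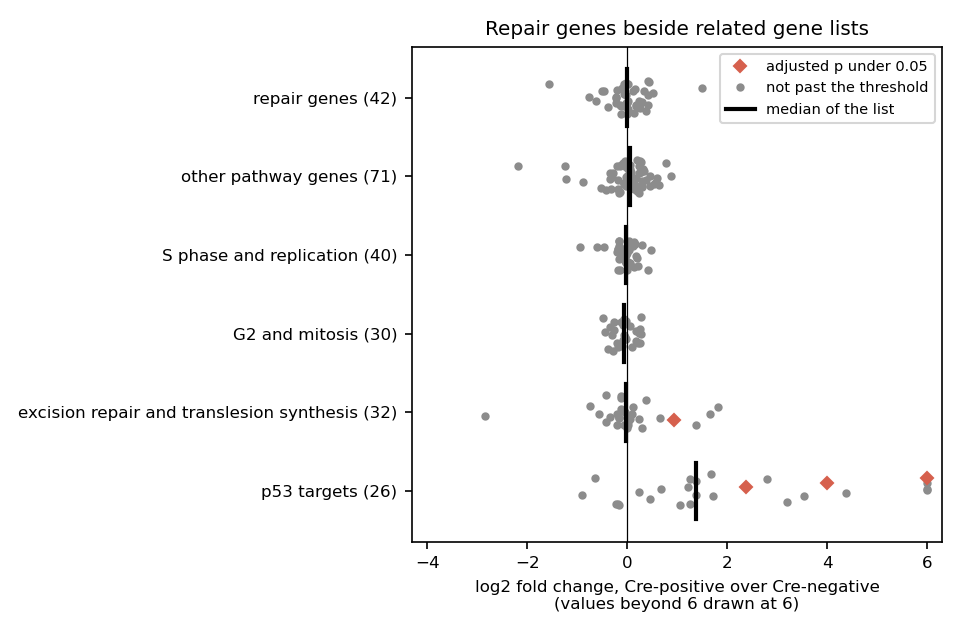
Log2 fold change of each tested gene in the repair list and in 5 related lists, with the number of genes in brackets, from edgeR on expected counts. Dots are genes, diamonds are genes past an adjusted p of 0.05 and bars are list medians. The repair genes lie around 0 with no diamond, as do the cell cycle lists, and the p53 targets have a median of 1.38.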

How the data were processed

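Libraries of total RNA from 6 samples were prepared with a stranded kit of Takara's SMARTer line (Pico), per the labels' protocols. The submitters' processing notes name STAR 2.5.3a, RSEM 1.3.0 and the build GRCm39 (mm39). Which annotation release and which strand setting were used is not stated in the labels or file headers. Each table deposited by the authors holds expected counts, TPM, FPKM and the effective length of each gene, per the file headers. FPKM values deposited by the authors were not used. Expected counts (2.64% not whole) were rounded. Genes were matched to symbols by identifier without version (52081 of 55359).

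Genes were kept by filterByExpr, scaled by TMM and tested with edgeR 4.0.16 (glmQLFit, glmQLFTest; R 4.3.3). P-values were adjusted by the Benjamini-Hochberg method over 13117 genes, with a threshold of 0.05. Standard errors are the log2 fold change over the square root of F, and 95% intervals use the test's degrees of freedom. The common biological coefficient of variation was 85.4%. Other settings used DESeq2 1.42.0 and limma 3.58.1. These intervals include the spread between libraries. The floor of 3 reads covers counting error only.

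The repair genes and the other lists were chosen with earlier results of these data known. Genes given in every library were those with an unadjusted p under 0.05 and the 3 highest and 3 lowest by mean TPM. Genes with groups apart by CPM and a log2 fold change of at least 0.5 in size were also given so. Others are examples of their role. From the further pathway genes the 6 with the smallest p were named, and 2 from each other list. Exon overlaps come from GENCODE M21 (GRCm38) and are used without coordinates, since its build is not that of the files. The replicate numbers were not used as a block, because the labels do not tie them to litters.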

Additional observations from a re-analysis of the deposited data

How the results depend on the processing

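The test was repeated under 15 other settings, and 0 of the repair genes were called under each of them. The mean filter of 1000 counts left 38 of the 42 to test. Over all genes, 16 calls became 619 with DESeq2 (316 higher and 303 lower), 39 with no filter on low counts, 84 where the mean count had to reach 1000, 6 with effective length offsets and 6 with limma on log2(TPM + 1). Leaving out 1 library gave 7 to 16 calls, the fewest without Cre-positive replicate 2, then 9 without Cre-positive replicate 1. The median log2 fold change of the repair genes was 0.136 with effective length offsets and 0.0897 on log2(TPM + 1) and -0.0248 to 0.0556 without 1 library, the highest without Cre-negative replicate 3. The sign of the log2 fold change was the same under all settings for 19 of the 42 genes and changed for 23, and 13 had the opposite sign with effective length offsets.

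A replicate block by sample number in edgeR gave 56 calls, 38 higher and 18 lower, and 0 repair genes, with a median of -0.01. Deviations of same-numbered libraries from their group means correlated at 0.026, 0.0534 and 0.0725 across genes. Each library correlated best with the library of its own number, a hint from the data and not from the design. Mean levels by a fixed gene length, added after the data were seen, moved by less than 1 SD of the TPM over libraries for all 42 genes. Rad51c, Lig4, Fancf and Fancl had means under 1000 reads, and the part of depth in their wide intervals was not tested.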
